A study of Arabidopsis thaliana with 57 samples.

Results

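The 46 genes described here are nuclear genes of Arabidopsis thaliana that encode the photosynthetic light-harvesting antennae, nuclear-encoded subunits of both photosystems and the small subunit of Rubisco. They were taken by their locus identifiers from a table of 28775 genes, and all 46 were present and tested. No filter on measured values was used, but earlier results of these data were known when they were chosen. They fall into 5 classes, with 6 antenna genes of photosystem I (LHCA), 14 antenna genes of photosystem II (LHCB), 12 subunits of photosystem I (PSA), 10 subunits of photosystem II (PSB) and 4 genes of the Rubisco small subunit (RBCS). The study asked how far the leaf transcriptome reverts when an abiotic stress ends. Rosette leaves of wild-type Col-0 plants, the usual laboratory accession, were harvested at day 18, 6 h after the lights came on, in a 12 h photoperiod, and their RNA was sequenced. Control plants (Cont_recovery) stayed at 22/18 °C (day/night) with light of 120 µmol m-2 s-1. For each of 8 stresses, leaves were taken either at the end of a stress that began on day 15 (end-point) or after a 3-day stress from day 12 and 3 days back in standard conditions (recovery). HL meant light of 350 µmol m-2 s-1, Heat meant 27/23 °C, and Heat-HL combined them. Cold meant 12/8 °C with light of 80 µmol m-2 s-1, and Cold-HL kept those temperatures with 200 µmol m-2 s-1. Drought was a shortage of water, Heat-drought was that shortage at the Heat temperatures, and Humidity was sealed trays with excess water. Each of the 17 groups had 3 libraries, 51 in all, and the control was sampled in the recovery setup only, so every comparison with control rests on the same 3 control libraries. Separate cultures are not stated for the replicates, so the p-values reflect only the scatter of these libraries, and that scatter may be technical.

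In plants, the antenna proteins bind chlorophyll and pass absorbed light energy to the reaction centres of photosystem I and photosystem II, which drive electrons from water to NADP+. LHCB1, LHCB2 and LHCB3 form the trimeric antenna of photosystem II, and LHCB4, LHCB5 and LHCB6 (CP29, CP26 and CP24) link it to the core. The core proteins of both photosystems and the large subunit of Rubisco are encoded in the chloroplast, whereas the genes described here are transcribed in the nucleus and their products are imported. Rubisco fixes carbon dioxide in the Calvin cycle.

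Values are regularized log2 values (rlog) deposited by the authors, and the depth of the libraries is unknown because no counts were used here. Library medians over the 19010 genes tested were higher than in control by 0.73 at the Heat-drought end-point, 0.54 in Drought, 0.51 in Cold-HL and 0.34 in Cold, so levels and differences are given on the log2 scale relative to the library median unless they are said to be as deposited. Levels are not per gene length and were not compared between genes. Differences are given ± SE, with 3 libraries in each group, and a gene is said to have risen or fallen where limma's moderated test passed at a Benjamini-Hochberg adjusted p of 0.05 over all genes tested. In whole leaves, fewer cells of a type and less RNA per cell cannot be told apart. One library stood apart in these genes. In Cold-HL_recovery replicate 2 all 46 were lower than the mean of the other 2 libraries of its group, by a median of -2.47 (range -3.41 to -0.15), while the other genes among the 1901 with the highest mean levels, which held 45 of the 46, differed by a median of -0.67 and the remaining tested genes by 0.03. That library widens the spread shared by all groups, so counts are given with all libraries and without it. Of the 4 root markers, RHD6, COBL9 and EXP7 had mean deposited values below 0 and PIN2 stood at 2.85, whereas all 6 guard-cell, 4 phloem and 4 epidermis markers were expressed.

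**Figure D1:**
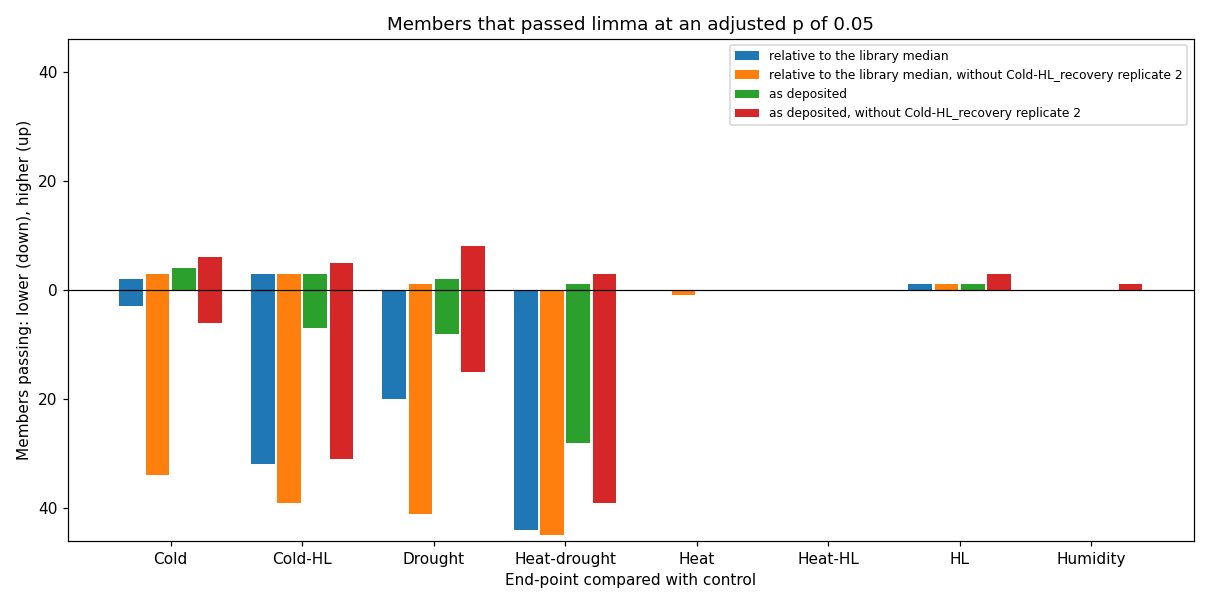
Number of the 46 genes that passed limma's test (adjusted p of 0.05) at each end-point against control, with higher genes above 0 and lower genes below 0; the 4 bars of a stress are the scale relative to the library median and the deposited scale, each with and without Cold-HL_recovery replicate 2. Heat-drought gave the most lower genes on each of them, 44 with all libraries relative to the median, and Heat-HL gave 0 on all 4.

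Most of the 46 genes fell at the Heat-drought and Cold-HL end-points, 20 fell at the Drought end-point, and the other 5 end-points gave 0 to 5 calls with all libraries relative to the library median. At the Heat-drought end-point 44 of the 46 fell and 0 rose, where 46.5% of all 19010 genes passed as lower, and the median difference of the 46 was -1.45 against -0.15 over all genes. As deposited 28 fell and 1 rose, where 13.2% of all genes passed as lower and 66.7% as higher, and without the library that stood apart 45 fell (47% of all genes). At the Cold-HL end-point 32 fell and 3 rose, where 29.4% of all genes passed as lower and 23.3% as higher, with a median of -0.87 against -0.05 over all genes. As deposited the split was 7 lower and 3 higher, where 2.53% and 68.2% of all genes passed, and without the library it was 39 and 3 (30.5% and 24.3%). Leaving out Cold-HL end-point replicate 3 gave 21 calls and replicate 1 gave 23.

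At the Drought end-point 20 fell and 0 rose, where 42.2% of all genes passed as lower, which is close to the 20 of 46, and the median was -0.63 against -0.13. With Cold-HL_recovery replicate 2 left out 41 fell and 1 rose (43.2% and 25.9% of all genes), and as deposited 8 fell and 2 rose (9.57% and 61.4%), with a median of -0.09. Leaving out Drought end-point replicate 3 gave 13 calls. At the Cold end-point 3 fell and 2 rose, where 21.7% passed as lower and 18.3% as higher, although the median was -0.48 against -0.04. That result rested on 1 library of another group, since without it 34 fell and 3 rose (22.9% and 19.6% of all genes), and on the scale, since as deposited 0 fell and 4 rose (2.17% and 54.2%). As deposited and without the library 6 fell and 6 rose (2.49% and 56.4%). Leaving out 1 library of the groups compared gave 1 to 4 calls, the fewest without control replicate 3.

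The remaining end-points gave 0 or 1 call. In HL 1 of 46 rose, LHCB4.3, where 0.405% of all genes passed as higher. Heat gave 0 calls (limma, 3 at an unadjusted p under 0.05), where 0.8% of all genes passed in either direction. Heat-HL gave 0 (1 unadjusted), where 0.242% passed, and Humidity gave 0 (0 unadjusted), where 5.89% passed. The median difference was -0.14 in HL, -0.17 in Heat, -0.05 in Heat-HL and 0.04 in Humidity.

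**Figure D2:**
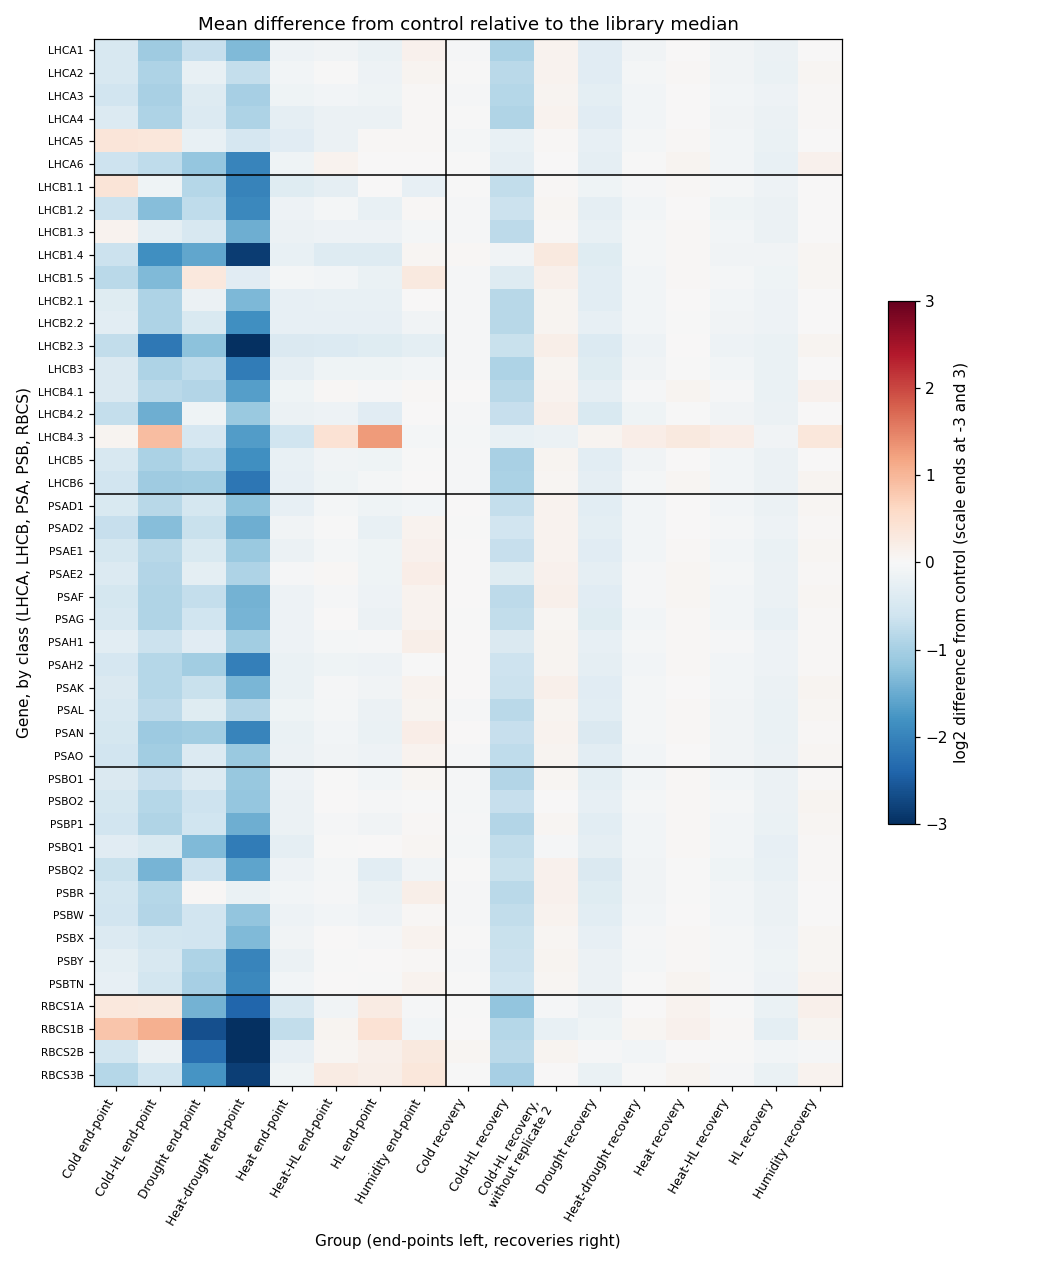
Mean log2 difference from control, relative to the library median, of each of the 46 genes (rows, by class) in each end-point and recovery group (columns), with Cold-HL recovery also shown without replicate 2; colours end at -3 and 3. The Heat-drought end-point column is the darkest, RBCS1B reaches -3.33 there, and the LHCB4.3 row is red in HL (1.28) and Cold-HL (0.92).

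The 3 libraries of a group were close at the Cold end-point and spread at the dry end-points. The median change of the 46 genes from the control mean was -0.54, -0.48 and -0.43 in the Cold libraries, and -0.92, -0.71 and -0.98 in the Cold-HL libraries. It was -0.60, -0.28 and -1.03 in Drought and -1.03, -1.41 and -1.88 in Heat-drought. All 12 of these libraries lay below 0, and the second Drought library was the least changed of its group. For comparison, the median difference of the 1901 genes with the highest mean levels, leaving out the members, was 0.17 in Cold, 0.21 in Cold-HL, -0.20 in Drought and -0.29 in Heat-drought.

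**Figure D3:**
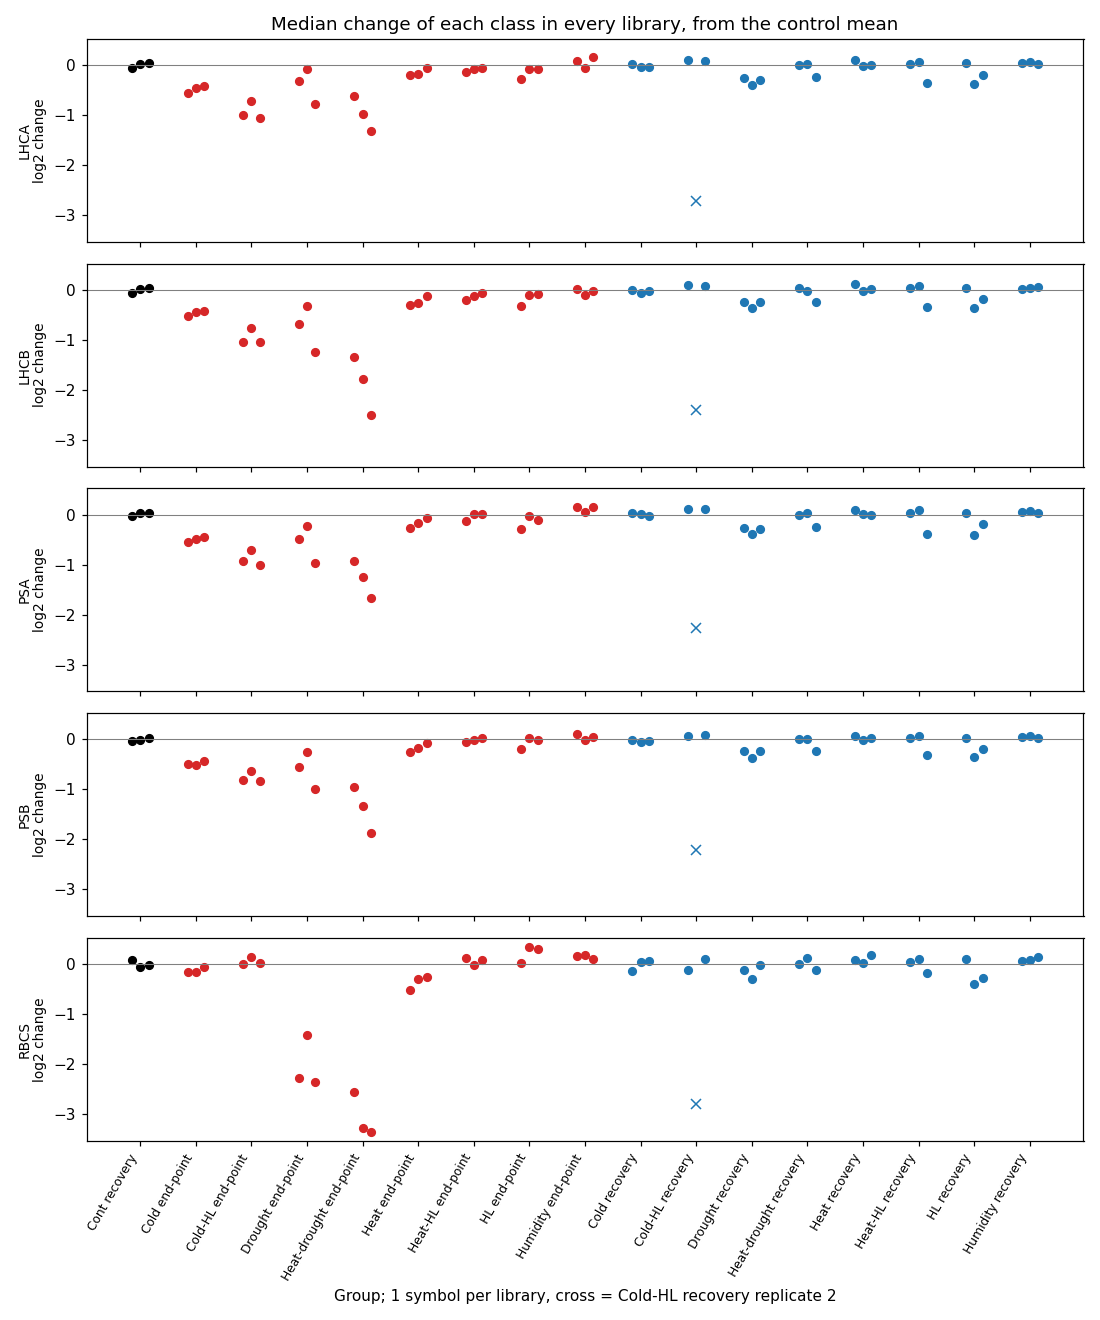
Median log2 change of each class from the control mean in every library (1 symbol per library; black control, red end-points, blue recoveries, cross Cold-HL recovery replicate 2), relative to the library median. The RBCS class stays near 0 at both cold end-points, where the other 4 classes lie below it, and is the lowest class in every Drought and Heat-drought library; the cross lies below -2 in all 5 classes.

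The classes did not share 1 pattern. In Cold-HL the median difference was -0.93 for LHCA, -0.94 for LHCB, -0.87 for PSA and -0.76 for PSB, but 0.06 for RBCS. In Heat-drought it was -0.97 for LHCA, -1.84 for LHCB, -1.30 for PSA, -1.39 for PSB and -3.08 for RBCS. In Drought it ran from -0.40 for LHCA to -2.01 for RBCS, and as deposited the LHCA median was 0.14 in Drought. As deposited 5 LHCB, 1 PSA and 1 PSB gene fell in Cold-HL, where 2.53% of all genes did. In Heat-drought 11 LHCB, 6 PSA and 6 PSB genes fell on that scale, where 13.2% of all genes did. No test was made between classes, since genes of a class are not replicates.

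All 4 Rubisco small subunit genes fell in Drought and in Heat-drought, where 42.2% and 46.5% of all genes did, also as deposited and without the library that stood apart. In Cold and in Cold-HL 1 of 4, RBCS1B, rose and 0 fell, and without that library 2 fell in Cold and 1 in Cold-HL. With all libraries 18.3% and 23.3% of all genes rose in Cold and Cold-HL, and without that library 22.9% and 30.5% fell. RBCS2B, RBCS3B and RBCS1B lie next to each other on the minus strand of chromosome 5, and RBCS1A (AT1G67090) is on chromosome 1. Their coding sequences are near-identical in places, which bears on how surely reads can be given to 1 gene, so the first 120 coding bases are shown, 5′ to 3′ from RefSeq (TAIR10.1), with capitals at the 25 positions where the 4 genes are not all the same.
RBCS1A: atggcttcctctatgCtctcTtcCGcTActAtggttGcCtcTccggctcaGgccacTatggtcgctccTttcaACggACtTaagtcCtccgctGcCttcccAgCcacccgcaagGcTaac
RBCS1B: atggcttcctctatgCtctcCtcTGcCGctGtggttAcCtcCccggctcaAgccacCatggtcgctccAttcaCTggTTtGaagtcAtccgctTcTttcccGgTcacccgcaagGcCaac
RBCS2B: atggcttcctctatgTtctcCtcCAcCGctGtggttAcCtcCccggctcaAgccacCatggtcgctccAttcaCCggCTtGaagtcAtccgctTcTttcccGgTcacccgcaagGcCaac
RBCS3B: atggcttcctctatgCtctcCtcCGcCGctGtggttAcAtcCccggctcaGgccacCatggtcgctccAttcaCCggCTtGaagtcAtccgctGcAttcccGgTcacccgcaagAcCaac

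Over the whole coding sequence, leaving out gaps, RBCS1B matched RBCS2B at 97.25% of bases and RBCS3B at 96.7%, and RBCS1A matched RBCS1B at 90.42%. Of the 150-base windows of the longest annotated transcripts, 4.814% of those of RBCS1B and 7.917% of those of RBCS3B were identical to a window of the other gene. How the authors counted reads that match more than 1 gene is not given in the sources used here, so RBCS1B, RBCS2B and RBCS3B are uncertain as single genes.

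RBCS1B (AT5G38430) had levels of 6.96, 6.78 and 6.77 in the control libraries, 7.66, 7.64 and 7.70 in Cold and 7.84, 8.03 and 7.87 in Cold-HL. Every cold library lay above every control library. The difference was 0.83 ± 0.28 in Cold (limma adjusted p = 0.017) and 1.08 ± 0.28 in Cold-HL (limma adjusted p = 0.0015). In the dry stresses the same gene was far below control, at 4.02, 4.58 and 4.04 in Drought and 3.87, 3.30 and 3.36 in Heat-drought. These were falls of -2.63 ± 0.28 and -3.33 ± 0.28. In Heat its levels of 5.80, 6.32 and 6.21 also lay below the control libraries, by -0.73, but this passed only without Cold-HL_recovery replicate 2 (limma adjusted p = 0.032, against 0.23 with it), where 1.78% of all genes passed as lower.

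RBCS1A, the gene that is usually described as giving most of the small subunit transcript in leaves, changed little in the cold. Its levels were 10.20, 10.15 and 10.15 in control, 10.47, 10.45 and 10.52 in Cold and 10.48, 10.53 and 10.38 in Cold-HL. The cold libraries lay above the control libraries, but the differences of 0.31 and 0.30 did not pass. In Drought it stood at 8.71, 9.17 and 8.38 and in Heat-drought at 8.12, 7.83 and 7.40, and both differences, -1.42 ± 0.43 and -2.38 ± 0.43, passed.

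The neighbours of RBCS1B lay below control in Cold but did not pass there with all libraries. RBCS2B (AT5G38420) was at 7.92, 7.64 and 7.77 in control and 7.17, 7.20 and 7.33 in Cold, below every control library, a difference of -0.55 that did not pass with all libraries and did without the 1 that stood apart (limma adjusted p = 0.011). RBCS3B (AT5G38410) went from 8.97, 8.90 and 8.95 in control to 8.08, 8.02 and 8.15 in Cold, a difference of -0.86 with the same outcome (limma adjusted p = 0.069 with all libraries, 6e-05 without). As deposited the RBCS2B and RBCS3B differences in Cold were -0.20 and -0.52. In Cold-HL the RBCS2B difference was -0.19, and 0.33 as deposited, and that of RBCS3B was -0.60, and neither passed with all libraries, while RBCS3B did without the 1 that stood apart (limma adjusted p = 0.002). In Heat-drought RBCS2B stood at 4.91, 4.22 and 4.24, a fall of -3.32 ± 0.34, and RBCS3B at 6.68, 5.92 and 5.72, a fall of -2.83 ± 0.38.

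**Figure D4:**
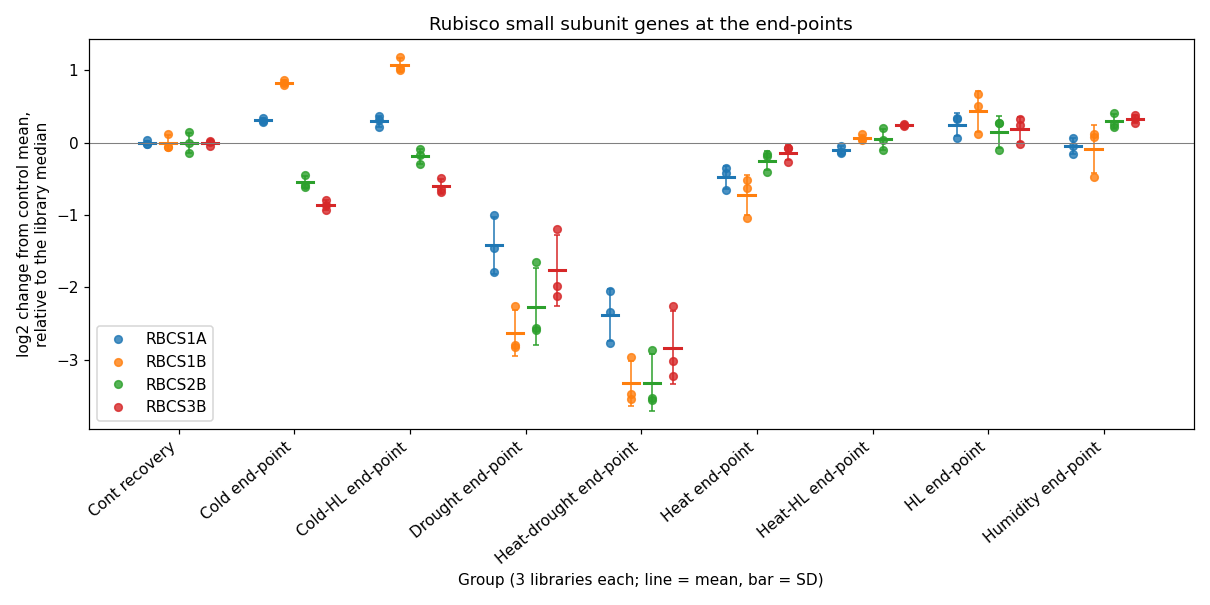
Log2 change from the control mean, relative to the library median, of the 4 RBCS genes in the control and the 8 end-point groups (points, libraries; lines, means; bars, SD of 3 libraries). RBCS1B is above 0 at both cold end-points while RBCS3B is below it, and all 4 genes lie below 0 in every Drought and Heat-drought library.

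Changes in the ratio between genes of the family can be read within each library, where centring cancels. The ratio itself does not give the makeup of the family, since levels are not per gene length. RBCS1B, RBCS2B and RBCS3B also remain uncertain as single genes in it. The log2 ratio of RBCS1A to RBCS1B was 3.33 ± 0.08 (SD, n = 3) in control, 2.81 in Cold and 2.55 ± 0.07 in Cold-HL, and 4.54 ± 0.18 in Drought. RBCS1B thus gained on RBCS1A at both cold end-points and lost in Drought, with no overlap between the libraries of these groups and control. The ratio of RBCS1A to RBCS3B was 1.22 ± 0.03 in control and 2.40 ± 0.03 in Cold. Each of these had an exact two-sided permutation p of 0.1, the smallest that 3 against 3 libraries allow, and over the 256 ratio tests made (16 pairs of genes, 8 stresses, end-point and recovery) the smallest adjusted p was 0.249.

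Among the LHCB genes, 13 of 14 fell in Heat-drought, 10 fell and 1 rose in Cold-HL, 7 fell in Drought and 1 fell in Cold. With all libraries 46.5%, 29.4%, 42.2% and 21.7% of all genes fell in these groups, and 23.3% rose in Cold-HL. The Drought count lay near its share and the Cold count below it. LHCB2.3 (AT3G27690), 1 of 3 genes of the LHCB2 protein that is phosphorylated in state transitions, had the largest fall of the class in Cold-HL and in Heat-drought. Its levels were 7.03, 7.11 and 7.19 in control, 4.85, 5.38 and 4.65 in Cold-HL, 5.86, 6.57 and 5.21 in Drought and 4.68, 3.87 and 3.48 in Heat-drought. All of the stressed libraries lay below control. The differences were -2.15 ± 0.35 in Cold-HL and -3.10 ± 0.35 in Heat-drought. LHCB2.1 and LHCB2.2, whose coding sequences match at 92.86% of ungapped bases, moved less, and in Cold-HL each differed by -0.93 and -0.94. The log2 ratio of LHCB2.1 to LHCB2.3 was 1.09 ± 0.03 (SD, n = 3) in control, 2.32 ± 0.25 in Cold-HL and 2.84 ± 0.20 in Heat-drought.

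The 5 LHCB1 genes encode the most abundant trimeric antenna protein and lie in 2 clusters, LHCB1.1 to LHCB1.3 on chromosome 1 and LHCB1.4 and LHCB1.5 on chromosome 2. The first 3 are shown over their first 120 coding bases, 5′ to 3′ from RefSeq (TAIR10.1), because few bases tell them apart; capitals mark the 9 positions where they are not all the same.
LHCB1.1: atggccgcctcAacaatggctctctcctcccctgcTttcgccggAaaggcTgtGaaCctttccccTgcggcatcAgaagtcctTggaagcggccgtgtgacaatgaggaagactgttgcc
LHCB1.2: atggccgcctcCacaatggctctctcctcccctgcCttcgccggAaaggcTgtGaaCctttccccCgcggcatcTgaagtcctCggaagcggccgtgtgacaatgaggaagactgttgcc
LHCB1.3: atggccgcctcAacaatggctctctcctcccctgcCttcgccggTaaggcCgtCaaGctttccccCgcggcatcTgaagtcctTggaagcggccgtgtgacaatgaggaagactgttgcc

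LHCB1.1, LHCB1.2 and LHCB1.3 matched each other at 95.65% to 96.39% of coding bases, and the 5 genes are uncertain as single genes, although 0 of their 150-base transcript windows were identical to a window of another gene. LHCB1.3 also had 1 identical deposited value, 18.39, in 12 of the 51 libraries, and LHCB1.5 had 1, 17.32, in 11, within a tolerance of 1e-05, so their differences are less sure than their SEs state.

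The copies nevertheless differed in the files. LHCB1.4 (AT2G34430) went from 8.30, 8.36 and 8.43 in control to 6.37, 6.93 and 6.29 in Cold-HL, 6.83, 7.51 and 6.09 in Drought and 5.95, 5.55 and 5.03 in Heat-drought. It fell in all 3, by -1.84 ± 0.27, -1.55 ± 0.27 and -2.86 ± 0.27. LHCB1.5 (AT2G34420), its neighbour on the opposite strand, stood at 9.31, 9.38 and 9.42 in control and at 9.74, 9.94 and 9.37 in Drought, where its difference of 0.31 did not pass with all libraries but did without Cold-HL_recovery replicate 2 (limma adjusted p = 0.038) and, at 0.85, as deposited. It fell in Cold by -0.80 ± 0.28 (limma adjusted p = 0.019) and in Cold-HL by -1.33 ± 0.28. The log2 ratio of LHCB1.4 to LHCB1.5 was -1.004 ± 0.02 (SD, n = 3) in control, -2.87 ± 0.42 in Drought and -3.53 ± 0.23 in Heat-drought, with no overlap.

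LHCB1.1 (AT1G29920) and LHCB1.2 (AT1G29910) differed in the cold. LHCB1.1 was at 9.24, 9.18 and 9.26 in control and 9.59, 9.61 and 9.65 in Cold, above control in every library, a difference of 0.39 that passed only as deposited or without Cold-HL_recovery replicate 2 (limma adjusted p = 0.027 and 0.049, and 0.36 with all libraries). LHCB1.2 was at 9.06, 9.16 and 9.17 in control and 8.43, 8.48 and 8.56 in Cold, below control in every library, a difference of -0.64 that passed only without that library (limma adjusted p = 0.0045).

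The monomeric antenna proteins CP26 and CP24 followed the class. LHCB6, encoding CP24, went from 8.69, 8.74 and 8.74 in control to 7.58, 7.89 and 7.51 in Cold-HL and 7.19, 6.57 and 5.92 in Heat-drought, and fell in both, by -1.06 ± 0.38 and -2.17 ± 0.38. LHCB5, encoding CP26, fell by -0.94 ± 0.39 and -1.84 ± 0.39 in the same groups. LHCB3, the minor trimer component, fell by -0.91 ± 0.39 and -2.09 ± 0.39.

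CP29 is encoded by 3 genes, of which LHCB4.3 (AT2G40100) is the least similar. It rose in Cold-HL, where 10 of the 14 LHCB genes fell (29.4% of all genes). It also rose in HL, where 0 LHCB genes fell with all libraries. Its levels were 2.34, 1.97 and 2.03 in control, 3.02, 3.50 and 3.64 in HL, 2.92, 3.27 and 2.89 in Cold-HL and 2.28, 2.01 and 2.32 in Cold. The HL and Cold-HL libraries lay above all control libraries and the Cold libraries overlapped with them, although the Cold difference passed as deposited (0.43). It rose by 1.28 ± 0.17 in HL (limma adjusted p = 0.00011) and by 0.92 ± 0.17 in Cold-HL (limma adjusted p = 2.5e-05), also as deposited and without the library that stood apart. It was the only 1 of the 46 to pass in HL with all libraries relative to the median. In Heat-HL its levels of 2.64, 2.33 and 2.70 gave a difference of 0.44 that did not pass. It fell in Heat-drought, to 0.68, 0.29 and 0.36, by -1.67 ± 0.17, and in Drought by -0.50 ± 0.17, which as deposited was 0.03.

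The other CP29 genes were lower in Cold-HL. LHCB4.2 (AT3G08940) went from 7.41, 7.59 and 7.57 in control to 5.96, 6.28 and 5.95, a fall of -1.46 ± 0.34. LHCB4.1 (AT5G01530) went from 8.35, 8.48 and 8.45 to 7.54, 7.85 and 7.43, a difference of -0.82 ± 0.36 just outside the threshold (limma adjusted p = 0.051, and 1.6e-05 without Cold-HL_recovery replicate 2). The log2 ratio of LHCB4.1 to LHCB4.3 was 6.31 ± 0.27 (SD, n = 3) in control, 4.58 ± 0.04 in Cold-HL, 5.01 ± 0.15 in HL, 5.79 ± 0.18 in Cold and 6.32 ± 0.09 in Heat-drought. It lay below every control library in the first 3 groups and overlapped with control in Heat-drought.

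**Figure D5:**
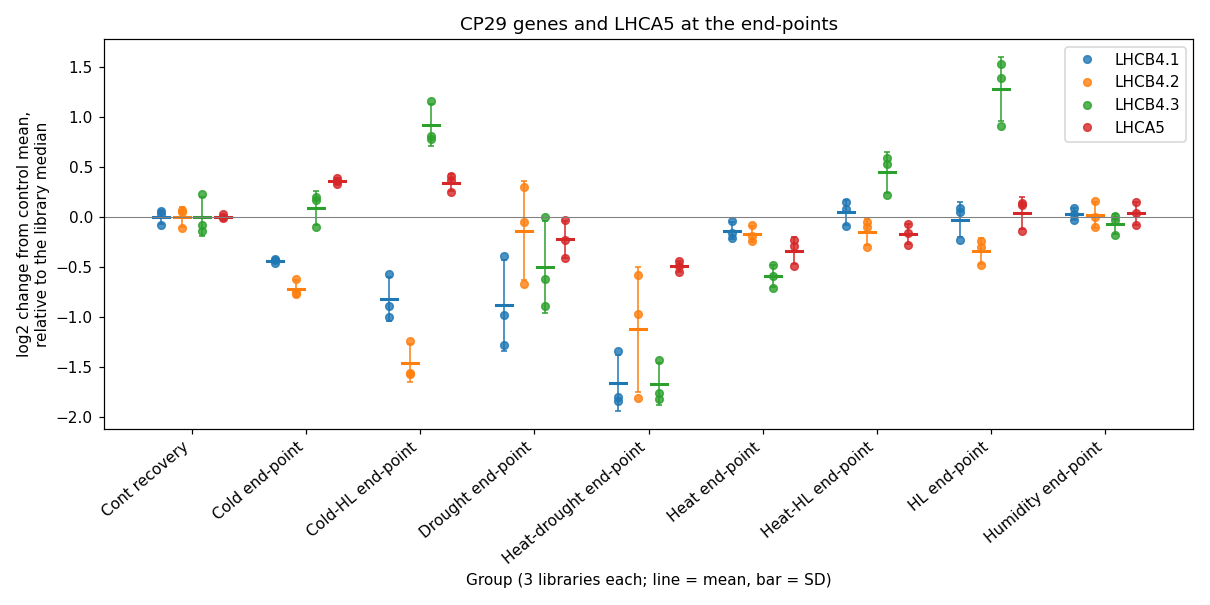
Log2 change from the control mean, relative to the library median, of the 3 CP29 genes and LHCA5 in the control and the 8 end-point groups (points, libraries; lines, means; bars, SD of 3 libraries). LHCB4.3 lies above the other CP29 genes in every HL and Cold-HL library, and LHCA5 is above control at both cold end-points.

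Because LHCB4.1 and LHCB4.3 encode forms of the same protein but differed in HL and Cold-HL, the 250 bases before their annotated gene starts are shown from RefSeq (TAIR10.1), with that of RBCS2B, a gene with a large fall in Heat-drought. The windows were searched on both strands for the G-box CACGTG, the I-box GATAAG, the CRT core CCGAC and CCAATC, and capitals mark the matches. They lie at chr5:208616-208865 on the plus strand (LHCB4.1), chr2:16745378-16745627 on the plus strand (LHCB4.3) and chr5:15382072-15382321 on the minus strand (RBCS2B).
LHCB4.1: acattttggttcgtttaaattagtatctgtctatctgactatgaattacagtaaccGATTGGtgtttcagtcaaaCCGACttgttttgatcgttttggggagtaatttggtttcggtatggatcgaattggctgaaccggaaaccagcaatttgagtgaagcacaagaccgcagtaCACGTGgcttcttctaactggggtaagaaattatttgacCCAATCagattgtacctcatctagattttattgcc
LHCB4.3: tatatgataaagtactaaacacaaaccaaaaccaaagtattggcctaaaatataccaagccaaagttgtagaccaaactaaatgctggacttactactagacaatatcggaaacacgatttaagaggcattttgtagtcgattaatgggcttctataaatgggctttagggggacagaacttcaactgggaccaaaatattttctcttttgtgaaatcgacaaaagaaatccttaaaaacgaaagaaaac
RBCS2B: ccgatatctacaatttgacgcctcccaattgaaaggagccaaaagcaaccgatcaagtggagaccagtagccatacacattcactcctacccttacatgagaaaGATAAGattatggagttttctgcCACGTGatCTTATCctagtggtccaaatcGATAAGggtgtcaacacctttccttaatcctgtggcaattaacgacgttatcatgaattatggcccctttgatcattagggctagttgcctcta

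The LHCB4.1 window held 1 G-box, 1 CCGAC and 2 CCAATC, the RBCS2B window 1 G-box and 3 I-boxes, and none of the 4 motifs was found in the LHCB4.3 window. Over all 46 genes the G-box was in 10 windows (21.74%), against 6.486% of the 27443 gene windows of the same length, the I-box in 10 (against 12.29%), CCAATC in 11 (23.91%, against 10.23%) and CCGAC in 3 (6.522%, against 11.97%). Members with none of the 4 motifs included LHCB1.4, LHCB3 and PSAN, which fell in Cold-HL and in Heat-drought, so that lack was not particular to LHCB4.3. A match is a description of letters in these windows and not of a bound site, and a link of motifs to the differences was not tested.

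Of the 6 photosystem I antenna genes, all 6 fell in Heat-drought, 5 fell and 1 rose in Cold-HL, 1 fell in Drought, and 1 fell and 1 rose in Cold. Beside these, 46.5% of all genes fell in Heat-drought, 29.4% fell and 23.3% rose in Cold-HL, and 42.2% fell in Drought. In Cold 21.7% fell and 18.3% rose, so with all libraries the Drought and Cold counts did not exceed the shares. LHCA5 (AT1G45474), a minor antenna protein that helps to join photosystem I to the NDH complex, rose at both cold end-points. Its levels were 3.43, 3.42 and 3.46 in control, 3.76, 3.80 and 3.82 in Cold and 3.80, 3.84 and 3.68 in Cold-HL, with no overlap. The rises were 0.36 ± 0.13 (limma adjusted p = 0.027) and 0.34 ± 0.13 (limma adjusted p = 0.028), and 0.70 and 0.85 as deposited. In Heat-drought, at 2.99, 2.94 and 2.88, it fell by -0.50 ± 0.13 relative to the library median but was higher by 0.24 as deposited.

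LHCA6 (AT1G19150), the other antenna protein tied to the NDH complex, fell where LHCA5 rose. It went from 3.22, 3.22 and 3.25 in control to 2.50, 2.68 and 2.68 in Cold, 2.36, 2.58 and 2.48 in Cold-HL, 2.06, 2.49 and 1.70 in Drought and 1.63, 1.42 and 0.68 in Heat-drought. It fell in all 4, by -0.61 ± 0.18, -0.76 ± 0.18, -1.15 ± 0.18 and -1.99 ± 0.18, of which -0.27 and -0.24 remained in the cold groups as deposited and did not pass there. LHCA1 to LHCA4 make up the main antenna belt. In Cold-HL all 4 fell, by -0.92 to -1.07, and as deposited 0 of the 4 passed. In Drought 0 of the 4 passed with all libraries. Without Cold-HL_recovery replicate 2, 41 of the genes described here fell in Drought, so the 4 cannot be taken as unchanged there.

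All 12 photosystem I subunit genes fell in Cold-HL and in Heat-drought, 4 fell in Drought and 1 in Cold. The shares of all genes that fell were 29.4%, 46.5%, 42.2% and 21.7%. With all libraries the Drought and Cold counts thus lay below the shares. PSAH2 (AT1G52230), 1 of 2 genes of the subunit where the phosphorylated antenna docks, went from 6.61, 6.64 and 6.63 in control to 5.62, 5.95 and 5.18 in Drought and 5.03, 4.61 and 4.08 in Heat-drought, all below control. These were falls of -1.05 ± 0.28 and -2.05 ± 0.28, the largest of the class. PSAH1 differed by -0.34 in Drought, which did not pass with all libraries. The log2 ratio of PSAH1 to PSAH2 was -1.08 ± 0.04 (SD, n = 3) in control and -0.07 ± 0.16 in Heat-drought. PSAD2 (AT1G03130), 1 of 2 genes of the ferredoxin-docking subunit, had the largest fall of the class in the cold, from 6.40, 6.40 and 6.41 in control to 5.64, 5.67 and 5.81 in Cold and 5.08, 5.32 and 4.97 in Cold-HL. The differences were -0.69 ± 0.26 (limma adjusted p = 0.033) and -1.28 ± 0.26, and as deposited the Cold difference of -0.35 did not pass. Its partner PSAD1 differed by -0.46 in Cold and -0.84 in Cold-HL, of which the second passed with all libraries.

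Of the 10 photosystem II subunit genes, 9 fell in Heat-drought, 5 in Cold-HL, 4 in Drought and 0 in Cold (limma, 1 at an unadjusted p under 0.05, and 7 fell without Cold-HL_recovery replicate 2). Among all genes 46.5%, 29.4%, 42.2% and 21.7% fell in the same groups, and 22.9% in Cold without that library. The Drought count with all libraries lay near its share. PsbQ, an extrinsic protein of the oxygen-evolving complex, is encoded by a pair of genes, and both fell in Heat-drought, PSBQ1 by -2.11 ± 0.28 and PSBQ2 by -1.57 ± 0.32. PSBQ1 (AT4G21280) went from 7.05, 6.88 and 6.84 in control to 6.41, 6.55 and 6.41 in Cold-HL, which did not pass (-0.47), and to 5.64, 6.03 and 5.17 in Drought, a fall of -1.31 ± 0.28. PSBQ2 (AT4G05180) went from 7.04, 7.24 and 7.20 in control to 5.71, 5.99 and 5.59 in Cold-HL, a fall of -1.40 ± 0.32, and to 6.59, 6.94 and 6.09 in Drought, which did not pass (-0.62). The log2 ratio of PSBQ1 to PSBQ2 was -0.24 ± 0.21 (SD, n = 3) in control, 0.70 ± 0.14 in Cold-HL and -0.93 ± 0.02 in Drought, on opposite sides of control and without overlap.

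PSBR (AT1G79040), encoding a small subunit of the oxygen-evolving side, was with LHCB1.5 the gene that did not fall in Heat-drought with all libraries. It stood at 8.26, 8.36 and 8.35 in control, 8.40, 8.58 and 8.09 in Drought and 8.36, 8.18 and 7.86 in Heat-drought, overlapping with control in both. The differences were 0.04 and -0.19, and 0.58 and 0.55 as deposited, where they passed only without Cold-HL_recovery replicate 2 (limma adjusted p = 1.3e-07 and 2.1e-07). It fell in Cold-HL by -0.86 ± 0.34. PSBO1 and PSBO2, encoding the manganese-stabilising protein, both fell in Heat-drought by -1.15.

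Across the 17 group means, 39 of the 46 genes had a correlation over 0.8 with the median of the other members, as a description over groups that share a fit and a scale. The lowest were LHCA5 (r = 0.252), LHCB4.3 (0.505), LHCB1.5 (0.519), PSBR (0.558), RBCS1B (0.59), RBCS1A (0.735) and LHCB1.1 (0.767).

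More light in the cold (Cold-HL against Cold end-points) changed 3 genes of the photosystem II antenna with all libraries, 1 higher and 2 lower, where 1.68% and 1.63% of all genes passed in these directions. LHCB4.3 was higher by 0.83 ± 0.17 (limma adjusted p = 0.004), and LHCB2.3 and LHCB1.4 were lower by -1.41 ± 0.35 (limma adjusted p = 0.018) and -1.19 ± 0.27 (limma adjusted p = 0.0082). The same comparison without Cold-HL_recovery replicate 2 had 1 higher and 16 lower (2.62% and 2.5% of all genes). Leaving out Cold end-point replicate 3, or Cold-HL end-point replicate 1 or 3, left 1 call. This comparison does not use the control libraries.

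The change in Heat-drought was tested against the sum of those in Heat and in Drought (the interaction of heat with drought). LHCB2.3 and LHCB1.4 were lower than that sum by -1.43 ± 0.50 (limma adjusted p = 0.045) and -1.08 ± 0.38 (limma adjusted p = 0.046), 2 of 46 where 8.22% of all genes passed as lower. With Cold-HL_recovery replicate 2 left out 30 passed as lower, where 9.64% of all genes did, and as deposited 3 (4.73%). Leaving out 1 library of the groups compared gave 0 calls for any Heat or control library and for Drought replicate 2 or Heat-drought replicate 3, and at most 8, without Heat-drought replicate 1. The interaction of heat with high light gave 0 of 46 (limma, 0 at an unadjusted p under 0.05 on each of the scales run), where 0.00526% of all genes passed.

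In recovery, 0 of the 46 genes passed against control after any of the 8 stresses, and neither did any of the 19010 genes (0%), so the members' count says nothing particular to them. At an unadjusted p under 0.05, 38 of the 46 passed in Cold-HL recovery, 1 in Humidity recovery and 0 in the others. Without Cold-HL_recovery replicate 2 it was 0 in Cold-HL recovery, 23 in Drought recovery, 1 in HL recovery and 0 in the others. The share of all genes at that unadjusted p is not given here, so whether these counts are particular to the members was not tested. The Drought recovery difference ran from -0.45 to 0.07 with a median of -0.30, and its libraries had medians of -0.25, -0.37 and -0.28, all below the control. In Heat-drought recovery it ran from -0.14 to 0.20 and in Cold recovery from -0.07 to 0.06. In Cold-HL recovery the range over the 46 genes was -1.18 to -0.11 with all libraries and -0.23 to 0.30 without replicate 2, whereas without replicate 3, which leaves replicate 2 as 1 of 2 libraries, 36 passed as lower. The share of all genes that passed without replicate 3 is not given here.

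Recovery libraries were also compared with their own end-points, with no control library involved. After Heat-drought 43 of 46 were higher in recovery, where 45.9% of all genes were, and 28 were higher and 2 lower as deposited, where 13% and 66.2% of all genes were. It was 44 without Cold-HL_recovery replicate 2 (46.4% of all genes). RBCS1B was higher by 3.38 ± 0.28, LHCB2.3 by 2.96 ± 0.35, PSBQ1 by 2.03 ± 0.28, LHCA6 by 1.97 ± 0.18 and PSAH2 by 1.96 ± 0.28. After Drought 12 were higher and 1, LHCB1.5 (-0.64 ± 0.28), lower, where 39.3% and 24.6% of all genes were, and as deposited 7 and 5 (10.5% and 54.7%). It was 24 and 2 without Cold-HL_recovery replicate 2 (40.2% and 25.3%), and without Drought end-point replicate 3 8 passed in all. All 4 RBCS genes were among the 12, with RBCS1B higher by 2.49 ± 0.28, as were LHCB1.4 (1.201 ± 0.27), PSBQ1 (1.04 ± 0.28), LHCA6 (0.89 ± 0.18) and PSAH2 (0.77 ± 0.28).

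After Cold 4 were higher and 2 lower in recovery than at the end-point, where 20.8% and 17.3% of all genes were. RBCS1B and LHCA5, which had risen in the cold, were lower by -0.83 ± 0.28 and -0.42 ± 0.13, and LHCB1.5 (0.76 ± 0.28), PSAD2 (0.68 ± 0.26), LHCB1.4 (0.67 ± 0.27) and LHCA6 (0.60 ± 0.18) were higher. Without Cold-HL_recovery replicate 2, 34 were higher and 3 lower (22% and 18.8% of all genes), and as deposited 0 were higher and 4 lower (1.91% and 54.5%). Leaving out 1 library of the groups compared gave 2 to 4 calls. After Cold-HL 8 were higher and 4 lower with all libraries, where 32.2% and 27.1% of all genes were, and 39 and 3 without replicate 2 (29.5% and 22.7%). As deposited the split was 2 and 13 (3.57% and 64%). Leaving out Cold-HL end-point replicate 1 gave 7 calls. LHCB1.4 was higher by 1.73 ± 0.27, PSBQ2 by 0.73 ± 0.32, PSAD2 by 0.71 ± 0.26 and LHCA6 by 0.48 ± 0.18, and RBCS1B, LHCB4.3 and LHCA5 were lower by -1.94 ± 0.28, -1.14 ± 0.17 and -0.57 ± 0.13. Without replicate 2 the RBCS1B difference was -1.30 ± 0.21.

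LHCB4.3 was the 1 gene that passed after HL, lower by -1.38 ± 0.17 in recovery (limma adjusted p = 1.6e-05), where 1.37% of all genes were lower, and the 1 that passed after Heat, higher by 0.89 ± 0.17 (limma adjusted p = 0.0057), where 0.405% were higher. The Heat call was lost without Heat end-point replicate 1 or Heat recovery replicate 3. After Heat-HL and Humidity 0 of 46 passed (limma, 0 and 1 at an unadjusted p under 0.05), where 0.184% and 7.55% of all genes did. Of the genes lower at an end-point, those that were then higher in recovery, with no call against control, numbered 43 of 44 for Heat-drought, 12 of 20 for Drought, 8 of 32 for Cold-HL and 3 of 3 for Cold. Without Cold-HL_recovery replicate 2 they numbered 44 of 45, 24 of 41, 39 of 39 and 34 of 34. The same end-point libraries picked these genes and entered the later comparison, so their scatter favours a rise. With all libraries 0 of the 19010 genes passed against control, so that condition excluded no gene. The share among all genes lower at an end-point is not given here, so these counts are a description only.

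Other genes of the pathway are given by list, beside the share of all genes that passed as higher and lower, which was 18.3% and 21.7% in Cold, 23.3% and 29.4% in Cold-HL, 25.3% and 42.2% in Drought and 32.2% and 46.5% in Heat-drought. No difference between lists or between stresses was tested. Of 9 Rubisco assembly factors and chaperonins, 6 rose and 0 fell in Cold and 7 and 0 in Cold-HL, with medians of 0.70 and 0.87. In Drought and in Heat-drought 7 of the 9 fell and 1 rose, with medians of -1.11 and -1.30, and CPN60B1, a chaperonin subunit, fell by -2.13 ± 0.23 in Heat-drought. Of 17 Calvin cycle genes 1 rose in Cold, 2 in Cold-HL and 0 fell in either (5 and 8 rose without Cold-HL_recovery replicate 2), and 15 fell in Drought and in Heat-drought, where GAPA2, a subunit of the glyceraldehyde phosphate dehydrogenase, fell by -2.29 ± 0.28.

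Of 13 photosystem assembly factors 6 rose and 1 fell in Cold, 6 and 2 in Cold-HL, 1 and 11 in Drought and 1 and 12 in Heat-drought. PSB28, a photosystem II assembly protein, fell by -2.08 ± 0.15 in Heat-drought. Of 14 genes of electron transport and the ATP synthase 0 rose and 4 fell in Cold, 0 and 3 in Cold-HL, 1 and 9 in Drought and 1 and 12 in Heat-drought, with 6 lower in Cold and in Cold-HL without Cold-HL_recovery replicate 2, and with PGRL1B, a factor of cyclic electron flow, lower by -1.07 ± 0.09 in Cold. Of 9 genes of antenna import and the state kinases 2 rose and 2 fell in Cold and 2 and 6 in Heat-drought, where LTD, which delivers antenna proteins, fell by -1.73 ± 0.15.

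Among 12 regulators of photosynthesis genes 2 rose and 2 fell in Cold, 5 and 4 in Cold-HL, 1 and 4 in Drought and 2 and 6 in Heat-drought, and the shares that fell lay near those of all genes. GLK2, a transcription factor of antenna genes, fell by -0.99 ± 0.14 in Cold, HYH, a light-signalling bZIP factor, rose by 1.202 ± 0.22 in Cold-HL, GNC fell by -0.86 ± 0.10 in Drought, and GUN4, a chlorophyll synthesis regulator, fell by -1.40 ± 0.18 in Heat-drought. Of 7 tested transcripts of chloroplast-encoded partner subunits 2 fell in Cold and in Cold-HL and 4 in Drought and in Heat-drought, with medians of -0.36, -0.31, -0.37 and -0.40. In Humidity 3 rose, PSBA among them (limma adjusted p = 0.026), where 5.89% of all genes passed in either direction. The Humidity libraries were spread, with a summed deposited level of the listed partners from 10.76 to 12.21, against 10.41 to 10.68 in control. Several of these counts turned with the scale. As deposited 0 of the 7 chloroplast-encoded transcripts fell at any of the 4 end-points and 4 rose in Heat-drought. As deposited the regulators had 8 higher and 1 lower in Cold and in Cold-HL, 6 and 1 in Drought and 8 and 2 in Heat-drought. The antenna import list had 3 higher and 0 lower in Cold and 5 and 2 in Heat-drought, and the electron transport list 3 and 1 in Cold and 5 and 2 in Cold-HL. The Calvin cycle genes had 10 higher in Cold, 15 in Cold-HL, 3 lower in Drought and 12 lower in Heat-drought as deposited. The assembly factors had 2 higher and 5 lower in Drought and 3 and 5 in Heat-drought.

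Of 6 guard-cell markers 4 fell in Drought and 4 in Heat-drought, where 42.2% and 46.5% of all genes fell, MYB60 by -1.31 ± 0.13 and -1.98 ± 0.13, whereas SLAC1 differed by -0.02 and -0.04. Their summed deposited level was 15.71 to 15.86 in control, 16.13 to 16.27 in Drought and 16.01 to 16.22 in Heat-drought. That sum is almost wholly the level of TGG1, whose mean deposited value was 15.73, against 6.69 to 8.72 for the other guard-cell markers. It is also not centred, and library medians were higher than in control by 0.54 in Drought and 0.73 in Heat-drought. Of 4 phloem markers 1 rose and 0 fell in Drought and 1 rose and 2 fell in Heat-drought, and of 4 epidermis markers 1 rose and 1 fell in both, CER6 rising by 0.89 ± 0.10 and 1.17 ± 0.10. As deposited 0 of the phloem and epidermis markers fell at these end-points. The part of these cell types in the photosystem and Rubisco results was not tested.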

How the data were processed

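Expression was measured by RNA sequencing of rosette leaves. The authors deposited log2 values per gene and library (rlog), which pull genes with few reads towards their mean. Per the submitters' processing notes they used Trimmomatic, STAR, featureCounts and DESeq2 with TAIR10; versions are not given in the sources used here. Of the columns of per-sample values, 51 were matched by name to a sample, and 6 were not and were not used, so the Heat-drought-HL groups were not analysed here. Genes with a mean deposited value of at least 3 were kept (19010 of 28775). Each library was centred on its median, and limma 3.58.1 in R 4.3.3 (with the data.table package, version 1.17.8) was fitted with 1 mean per group, an intensity trend and robust variances, with two-sided tests and Benjamini-Hochberg adjustment at 0.05; it was tested on simulated data. Ratios of gene pairs were compared by exact permutation. The members and gene lists were chosen with earlier results of these data known. For each comparison and class, the members with the largest rise and largest fall among those that passed are named, and in each other list the gene with the largest difference, except 1 gene that is not reported here; other members named, such as PSBR, LHCB4.1 and LHCB1.1, and SLAC1, were chosen after their values were seen. Sequences came from RefSeq TAIR10.1, which held all 46 locus tags, read with Biopython 1.88 in Python 3.11.15. Depth is unknown, so no interval was drawn from it. Replicate numbers were checked for pairing. Deviations of all 3 same-numbered pairs correlated over 0.1 in 3 of 24 comparisons. These were the Heat (0.157 to 0.369), Heat-HL (0.205 to 0.431) and HL (0.177 to 0.42) end-points against control. The check of the data was met there, and the labels give no reason for a pairing. These 3 comparisons share the same control libraries, and correlations elsewhere ran down to -0.728, so pairing is not established. Alternatives were the deposited scale, quantile normalization, no filter on low values, a replicate block, and leaving out libraries.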

Additional observations from a re-analysis of the deposited data

Results flagged for a closer look

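The interaction of heat with drought differed from 0 in 2 members with all libraries. LHCB2.3 was lower in Heat-drought than the sum of the changes in Heat and Drought by -1.43 ± 0.50 on the log2 scale (limma adjusted p = 0.045), and LHCB1.4 by -1.08 ± 0.38 (limma adjusted p = 0.046). LHCB2.3 was below every control library in each of the 3 Heat-drought libraries. The same held in each Drought library, so that position does not bear on the interaction. Both calls lie close to the threshold, 8.22% of all genes passed in that direction, and with no filter on low values, or without any one of the Heat or control libraries, 0 members passed.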

How the results depend on the processing

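Counts of members that passed (limma) are given as all calls. The share of all genes is not given for quantile normalization, no filter, the replicate block or leaving out other libraries. Whether the members moved apart from all genes under those settings was therefore not tested. As deposited they were 4 for Cold end-point against control (all higher), 10 for Cold-HL, 10 for Drought and 29 for Heat-drought, and 4 for recovery against end-point in Cold and 15 in Cold-HL, mostly lower. Quantile normalization gave 22 for Cold end-point, recovery against end-point 22 in Cold, 35 in Cold-HL, 22 in Drought and 2 in Heat, 18 for added light in the cold and 35 for the interaction of heat with drought. No filter on low values gave 3 in Cold and 9 in Cold-HL recovery against end-point and 0 for the interaction. Without Cold-HL_recovery replicate 2 the end-points gave 37 in Cold, 42 in Drought and 1 in Heat, recovery against end-point 37 in Cold, 42 in Cold-HL, 26 in Drought, 4 in Heat and 2 in HL, added light 17 and the interaction 30. As deposited and without that library, a setting chosen after seeing the data, the end-points gave 12 in Cold, 3 in HL and 1 in Humidity, recovery against end-point 9, 35, 26, 4 and 4 in Cold, Cold-HL, Drought, Heat and HL, added light 17 and the interaction 29. Leaving out each other library of the groups compared gave 1 to 4 in Cold, 21 to 32 in Cold-HL and 13 to 26 in Drought end-points, 0 to 36 in Cold-HL recovery against control, 2 to 4 in Cold, 7 to 12 in Cold-HL, 8 to 15 in Drought and 0 to 1 in Heat recovery against end-point, 1 to 3 for added light and 0 to 8 for the interaction; including Cold-HL_recovery replicate 2, 7 to 42 for Cold-HL recovery against end-point. Of the named members, LHCA6 in Cold-HL recovery against end-point was -0.0111 as deposited. Under quantile normalization the log2 ratio change reversed for RBCS1A to RBCS2B in Heat (0.0268), PSAE1 to PSAE2 in Cold (0.23), Drought (0.14) and Heat-drought (0.20), PSAH1 to PSAH2 in Cold (-0.00164), LHCB2.1 to LHCB2.2 in Cold (0.0836), LHCB1.4 to LHCB1.5 in Cold (-0.10), LHCA4 to LHCA5 in Heat-drought (0.68) and LHCA2 to LHCA6 in Cold-HL (0.32) and HL (0.0496). The causes were not tested. In the other 21 comparisons the check of replicate numbers was not met (correlations of same-numbered deviations from -0.728). Still, 37 of 51 libraries were closest to their own number, a hint from the data and not the design. With the replicate block 0 members passed in Heat and Heat-HL, 1 in HL, 35 passed in Cold-HL, 20 in Drought and 43 in Heat-drought end-points, and no named member changed its call. Planned comparisons that need the Heat-drought-HL groups, high light added to heat-drought included, were not run, and the fits used 51 libraries in 17 groups.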
